A study of Homo sapiens with 4 samples.

Results

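Glycolysis splits glucose into pyruvate in the cytosol through a fixed series of enzymes and yields ATP and NADH, and lactate dehydrogenase then turns pyruvate into lactate, which restores NAD+. Its enzymes are abundant in proliferating cells, and several of their mRNAs are widely used as reference transcripts. The 10 enzymes described here were chosen by gene symbol (HK1, GPI, ALDOA, TPI1, GAPDH, PGK1, PGAM1, ENO1, PKM and LDHA). The rule uses no values, but earlier results of these data were known when the enzymes were chosen. Of these 10 genes, 9 were listed in every one of the 4 tables, among 8568 transcripts listed in all 4 and 9271 listed in any. ALDOA, the aldolase that splits fructose 1,6-bisphosphate, was in 0 tables and is not analysed here.

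The data are ribosome profiling libraries, in which stretches of mRNA shielded by ribosomes from nuclease (ribosome protected fragments, RPFs) are sequenced. HEK293T cells, which derive from human embryonic kidney and carry the simian virus large T antigen, were left untreated (2 replicates, A and B) or were given G418 at 500 µg/mL for 24 hr (2 replicates, A and B). G418 belongs to the aminoglycosides, drugs that act on ribosomal decoding, and promotes stop codon readthrough, in which a ribosome passes the normal termination codon (NTC) and translates on to the next in-frame termination codon in the 3′UTR (3′TC). The 2 groups share the cell line and differ by the drug, and all 4 libraries come from this 1 line. Reads on mRNAs numbered from 2440204 to 6082600 per library, and untreated B was the shallowest. The replicates differed from each other beyond counting noise, with a chi-square per degree of freedom over transcripts of 4.10 between the untreated and 1.35 between the treated libraries. Of 6 marker genes of the line, 5 were listed in all tables, and of 8 markers of other cell types 0 were. VIM, the marker with the most reads, had 639 and 658 RPKM in untreated and 558 and 533 RPKM in G418-treated cells (log2 fold change −0.32, edgeR adjusted p of 0.00902).

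For each gene the authors counted reads on a single transcript, and the readthrough values below refer to the NTC of that transcript. The 9 contexts are shown because the stop codon and the nucleotide after it, printed in capitals, are the feature by which the readthrough values are compared. Each run reads 5′ to 3′ on the mRNA, from 15 nt before the NTC to 12 nt after it, and was taken from the GENCODE annotation of hg38.
HK1: acagaggcaagcagcUAAGaguccgggauc
GPI: gaggccagaguccaaUAAAcucgugcucau
TPI1: aucaaugccaaacaaUGAGccccauccauc
GAPDH: auggccuccaaggagUAAGaccccuggacc
PGK1: gcucucagcaauauuUAGUacuuuccugcc
PGAM1: ggcaaggccaagaagUGAAggccggcgggg
ENO1: aaccccuuggccaagUAAGcugugggcagg
PKM: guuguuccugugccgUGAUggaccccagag
LDHA: uaucugaucugugauUAAAgcaguaauauu

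By stop codon, HK1, GPI, GAPDH, ENO1 and LDHA end in UAA, TPI1, PGAM1 and PKM in UGA, and PGK1 in UAG. HK1, GAPDH and ENO1 share the same 4 nt, UAAG, and GPI and LDHA share UAAA. The NTC lies in the last exon of all 9 transcripts. On hg38 it occupies chr10:69401133-69401135 on the plus strand in HK1, chr19:34400034-34400036 plus in GPI, chr12:6870381-6870383 plus in TPI1 and chr12:6538168-6538170 plus in GAPDH. It is at chrX:78125828-78125830 plus in PGK1, chr10:97432522-97432524 plus in PGAM1, chr1:8861360-8861362 minus in ENO1, chr15:72199650-72199652 minus in PKM and chr11:18407374-18407376 plus in LDHA.

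The distance from the NTC to the first in-frame 3′TC, which is the stretch a readthrough product would add, varied widely. It was 5 sense codons in PGK1, 9 in GPI, 14 in LDHA, 25 in PKM, 28 in PGAM1, 36 in ENO1, 45 in HK1 and 54 in TPI1. GAPDH has 0 in-frame 3′TCs in its 3′UTR, and all 157 nt of the 3′UTR that remain after the nucleotides next to the NTC were counted. At the other end, PGK1 has 69 in-frame 3′TCs and a count region of only 12 nt. The LDHA transcript in the tables differs from the one usually taken as the reference (MANE Select). Its NTC lies 95 nt downstream of the MANE Select stop and in another frame, and 269 nt of the MANE Select CDS are outside its CDS, so its readthrough values do not describe the usual LDHA stop codon. The PKM transcript differs from MANE Select by 167 nt of CDS and shares its stop codon. The GAPDH transcript is also another than MANE Select, with the same CDS and stop codon, so its 5′UTR values refer to the 5′UTR of the transcript in the tables.

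Ribosome density on the CDS (RPKM, reads per kilobase of CDS, scaled to library size) depends on both the mRNA level and the translation of each enzyme. In untreated cells this density spanned from HK1 at 43.6 ± 3.34 RPKM (SD, n = 2) to ENO1 at 2582 ± 158 RPKM (SD, n = 2). HK1, a hexokinase that phosphorylates glucose at the entry of the pathway, stood alone at the bottom. ENO1, the enolase that makes phosphoenolpyruvate, and GAPDH, the dehydrogenase that makes NADH, stood at the top, and their ranges overlapped in both groups. Below them came LDHA (lactate dehydrogenase A), TPI1 (triose phosphate isomerase), PKM (the muscle-type pyruvate kinase), PGK1 (the first ATP-producing kinase), GPI (glucose-6-phosphate isomerase), PGAM1 (phosphoglycerate mutase) and HK1. From GAPDH down, the replicate ranges of neighbours in this order did not overlap in untreated or in G418-treated cells. The CDS densities and CDS tests of LDHA and PKM refer to transcripts whose CDS differs from that of MANE Select. Their place in the order on the MANE Select CDS was not tested. The order over all 4 libraries was the same for all 9 enzymes when counts per kilobase of the whole CDS were used. That alternative keeps the same counts and adds 33 nt to each CDS length, so it could hardly change the order.

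**Figure D1:**
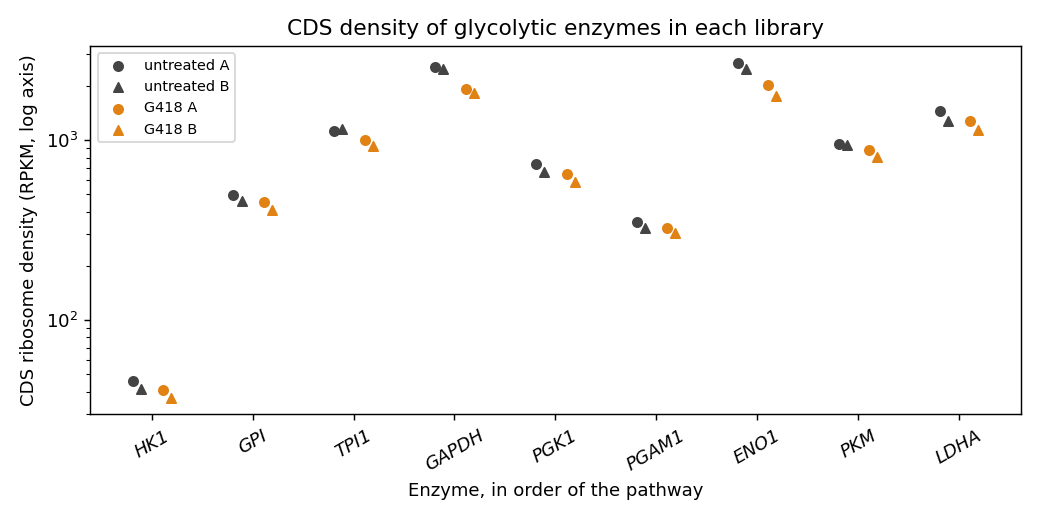
CDS ribosome density of the 9 enzymes in RPKM on a log axis, by enzyme in pathway order, with 1 point for each library (grey untreated, orange G418, circles replicate A, triangles replicate B). ENO1 and GAPDH lie at 1757 RPKM or above in every library and HK1 at 45.9 RPKM or below.

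The first comparison asked whether G418 altered the CDS reads of each enzyme. These reads depend on both mRNA level and translation, which cannot be told apart here because RNA was not measured in these libraries. All 9 enzymes had fewer CDS reads in G418-treated cells, and 6 of them (TPI1, GAPDH, PGK1, ENO1, PKM and LDHA) passed the test in that direction, with 0 higher. Over all 8494 transcripts tested, 3.21% were called lower and 5.31% higher, and the median log2 fold change was 0.00, against −0.25 over the 9 enzymes. The enzymes were not compared with other transcripts of like CDS density, so whether the fall is particular to them was not tested. The test was edgeR's quasi-likelihood test on the deposited counts with Benjamini-Hochberg adjustment over all transcripts. Together the 9 enzymes took 1.77% and 1.83% of all CDS reads in the untreated libraries and 1.49% and 1.47% in the G418 libraries.

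ENO1 and GAPDH had the lowest log2 fold changes, and their order relative to each other changed without untreated A and without G418 B. The CDS density of ENO1 was 2693 and 2470 RPKM in untreated A and B and 2036 and 1757 RPKM in G418 A and B, so both treated libraries lay below both untreated ones. The log2 fold change of its counts was −0.52 ± 0.073 (SE), with an edgeR adjusted p of 3.14e-05. GAPDH had 2534 and 2495 RPKM in untreated cells and 1928 and 1822 RPKM in G418-treated cells, again without overlap, with a log2 fold change of −0.50 ± 0.074 (SE) and an edgeR adjusted p of 5.56e-05. Both lay among the lowest 1.64% of all log2 fold changes tested. GAPDH shares its symbol with 65 annotated pseudogenes and ENO1 with 4, and because the authors kept a single alignment of reads that map to several places, the share of reads lost to or gained from such copies was not tested.

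TPI1, which interconverts the triose phosphates, had 1121 and 1145 RPKM in untreated cells and 995 and 928 RPKM in G418-treated cells. Its log2 fold change was −0.31 ± 0.080 (SE), with an edgeR adjusted p of 0.0118. PGK1 (733 and 668 against 645 and 587 RPKM) and PKM (957 and 943 against 879 and 803 RPKM) fell by 0.26 and 0.25 on the log2 scale, with edgeR adjusted p of 0.0325 and 0.0345. LDHA fell by 0.25 on the log2 scale, with an edgeR adjusted p of 0.0363, but its densities overlapped between the groups, at 1451 and 1269 against 1272 and 1131 RPKM.

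The remaining 3 enzymes did not pass the test. HK1 had 45.9 and 41.2 RPKM in untreated and 40.7 and 37.1 RPKM in G418-treated cells (log2 fold change −0.24 ± 0.097 SE, edgeR adjusted p of 0.121). GPI had 498 and 459 against 454 and 408 RPKM (−0.22 ± 0.078 SE, edgeR adjusted p of 0.0698). PGAM1 had 349 and 324 against 323 and 306 RPKM (−0.17 ± 0.087 SE, edgeR adjusted p of 0.243). In each of these 3 both G418 libraries lay below both untreated ones. How many of all transcripts showed that order was not counted, so it is not taken as a fall.

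The calls for the smaller falls depended on the tool and on single libraries. DESeq2 called 3 of the enzymes (ENO1, GAPDH and TPI1), library totals in place of TMM normalization called 2 (ENO1 and GAPDH) and moved the median of all transcripts to 0.11, and without G418 A or without G418 B a single enzyme passed in each case, ENO1 without A and GAPDH without B. Under library totals 887 transcripts were called higher and 120 lower, against 451 and 273 with TMM.

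**Figure D2:**
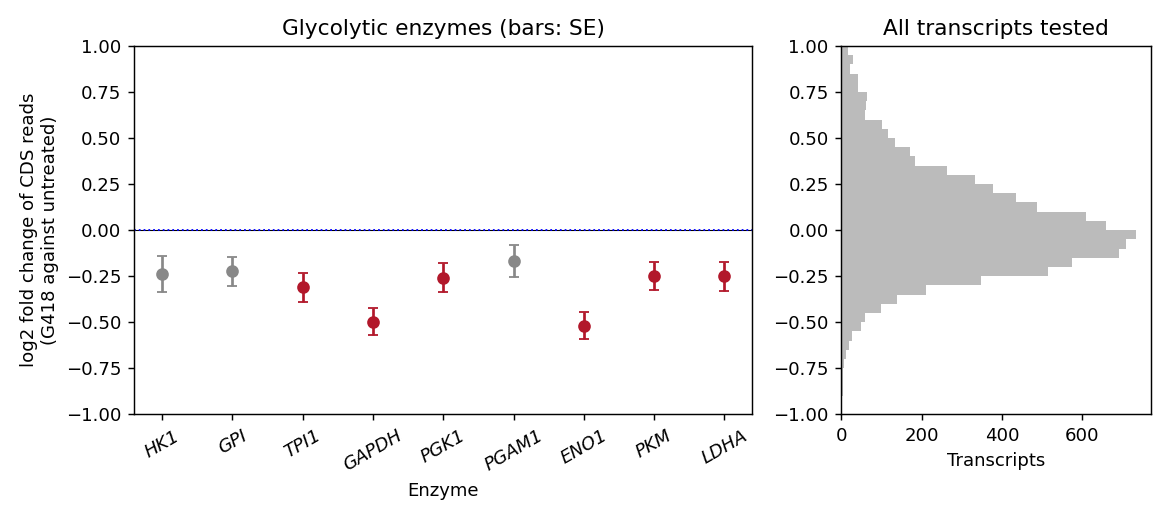
Left, log2 fold change of CDS counts in G418-treated against untreated cells for each enzyme, with bars of 1 SE derived from edgeR's F statistic. Points are red where the adjusted p was under 0.05 and grey otherwise, and a dotted line marks the median of all transcripts, close to 0. Right, a histogram of the same quantity for all 8494 transcripts tested, drawn between −1 and 1. All 9 enzymes lie below 0, from −0.17 (PGAM1) to −0.52 (ENO1).

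Other glycolytic genes on a list of 21 isoenzymes were measured less often, with 7 tested. Of these 7, 2 fell and 0 rose, beside 3.21% lower and 5.31% higher over all transcripts. LDHB, the heart-type subunit of lactate dehydrogenase, had 2793 and 2294 RPKM in untreated and 2143 and 1971 RPKM in G418-treated cells (log2 fold change −0.38 ± 0.076 SE, edgeR adjusted p of 0.00147). ALDOC, the only aldolase tested, had 29.4 and 35.8 against 24.6 and 24.1 RPKM (−0.46 ± 0.14 SE, edgeR adjusted p of 0.0418). Among 7 tested genes for glucose and lactate transport and regulation of the pathway, 0 passed by edgeR in either direction. SLC2A1, the main glucose transporter of most cultured cells, was at 50.3 and 49.4 RPKM in untreated cells and 44.5 and 47.1 RPKM in G418-treated cells.

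The second comparison concerned readthrough. The ribosome readthrough score (RRTS) is the read density between the NTC and the first 3′TC divided by the density on the CDS, given here in percent. In untreated cells few reads lay there. The 9 enzymes had between 0 and 10 such reads with both untreated libraries pooled, and the highest pooled RRTS was 1.41%, in PGAM1. In G418-treated cells the pooled RRTS ran from 0.796% in LDHA to 14.4% in GPI. RRTS was higher in both G418 libraries than in both untreated libraries for all 9 enzymes. HK1, PGK1 and LDHA had only 7 or fewer such reads under G418. How many of all transcripts showed the same order was not counted, so nothing is read from it. Over all transcripts 82.6% of the 2827 tested were called higher, so a rise was the usual outcome. GPI, TPI1, GAPDH, PGAM1, ENO1 and PKM reached the minimum of 10 such reads in total, and edgeR called all 6 higher. Only ENO1 had 10 reads in untreated cells. The other 5 reached the minimum through their G418 reads, which favoured such a call, so nothing is read from this count and their ratios are given with counting intervals in place of the test.

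TPI1 carried the most reads. It had 3 and 2 reads before the first 3′TC in untreated A and B, 155 in G418 A and 283 over both G418 libraries, which gave RRTS of 0.188% and 0.283% against 11.7% and 11.3%. The pooled RRTS was 53.0 times that of untreated cells, with an exact 95% counting interval of 22.4 to 164. PKM had 1 and 1 reads in untreated cells and 78 and 52 in G418-treated cells, and RRTS of 0.163% and 0.379% against 14.7% and 11.7%. Its pooled RRTS was 58.7 times that of untreated cells, with a counting interval of 15.9 to 490. These 2 enzymes and PGAM1 are the members that end in UGA.

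PGAM1 had the highest untreated score of the 3. It had 3 and 2 reads in untreated and 22 and 19 in G418-treated cells, with RRTS of 1.19% and 1.96% against 10.0% and 9.98%. Its pooled ratio was 7.09, with a counting interval of 2.81 to 23.0.

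ENO1 and GAPDH, the enzymes with the highest CDS density, share the 4 nt UAAG but had different scores. ENO1 had 8 and 2 reads in untreated and 89 and 82 in G418-treated cells, with RRTS of 0.317% and 0.198% against 4.96% and 5.80% (log2 fold change 4.21 ± 0.34 SE, edgeR adjusted p of 7.06e-34). GAPDH had 2 and 2 reads against 49 and 40, with RRTS of 0.0563% and 0.131% against 1.93% and 1.82% (pooled ratio 23.9, counting interval 9.002 to 89.5). The treated scores of the 2 genes did not overlap, but they cover unlike regions. ENO1 was counted over 105 nt up to its first 3′TC, and GAPDH over 157 nt with 0 in-frame 3′TCs. The gap is therefore not read as a difference at the stop codon. HK1, the third enzyme with UAAG, had 1 and 0 reads in untreated and 5 and 2 in G418-treated cells, and RRTS of 1.85% and 0% against 11.1% and 5.33%. Its pooled ratio of 6.38 had a counting interval of 0.820 to 288, so a rise was not detectable at this depth.

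GPI and LDHA share UAAA. GPI had 0 and 0 reads in untreated and 14 and 10 in G418-treated cells, with RRTS of 15.3% and 13.3% after treatment. With 3 reads over both untreated libraries as the floor, its pooled score was 7.19-fold higher. This value leaves out the counting error of the G418 reads and is not a lower bound. LDHA had 0 and 1 reads against 3 and 3, with RRTS of 0% and 0.520% against 0.721% and 0.887%, and its pooled ratio of 5.55 had a counting interval of 0.674 to 255. PGK1, the only enzyme with UAG, had 0 and 0 reads against 5 and 1, with RRTS of 7.71% and 1.85% in G418 A and B. Its pooled score was 1.85-fold higher against the same floor, again without the counting error of its 6 G418 reads. Its counted region was only 12 nt.

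**Figure D3:**
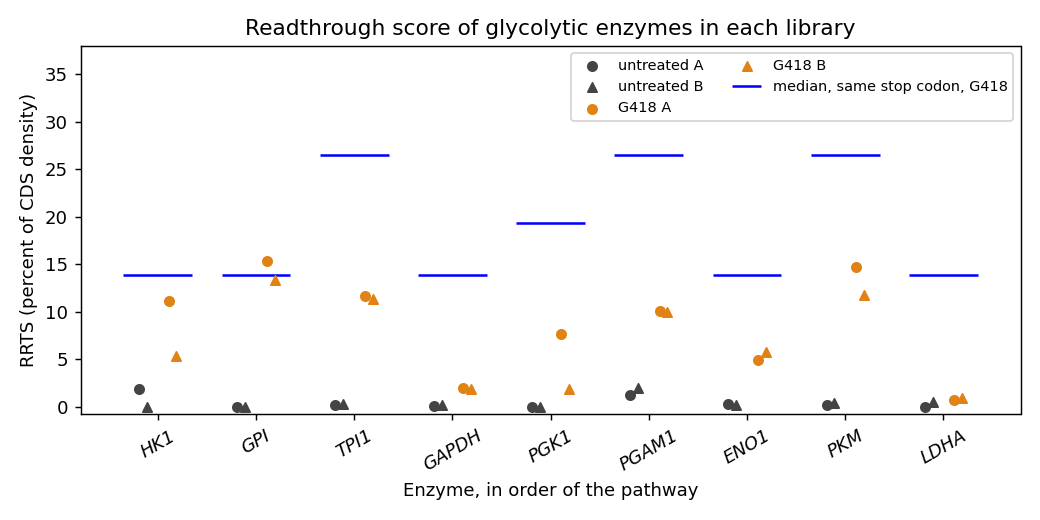
RRTS of each enzyme in percent of CDS density, with 1 point for each library (grey untreated, orange G418, circles replicate A, triangles replicate B) and a blue line at the median RRTS in G418-treated cells of the other transcripts with the same stop codon. Points in G418-treated cells lie above those in untreated cells for each enzyme. Only GPI has a point above its blue line, that of G418 A.

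Against transcripts with the same stop codon, most enzymes had low scores under G418. Among transcripts that met the study's read minimum in each G418 library, the pooled RRTS had a median of 13.8% for UAA (1639 transcripts), 19.3% for UAG (1222) and 26.5% for UGA (2800). The pooled score of 8 of the 9 enzymes lay below the median of the other transcripts with its stop codon, and the same held for 8 of 9 when the 4 nt were matched. GPI was the exception in both, on 24 G418 reads in a counted region of 24 nt. Its score lay above the UAA median in G418 A (15.3%) and below it in G418 B (13.3%). The 8 include HK1 and PGK1, with 7 and 6 G418 reads, and LDHA, whose NTC is not the usual one. They also include GAPDH, which has no in-frame 3′TC and was scored over the rest of its 3′UTR. LDHA lay above 14.3% of the other UAA transcripts, GAPDH above 15.8%, ENO1 above 22.5%, HK1 above 32.4% and GPI above 51.8%. TPI1, PGAM1 and PKM lay above 19.3%, 17.1% and 22.7% of the other UGA transcripts, and PGK1 above 14.3% of the other UAG transcripts. Transcripts with high CDS density as a whole also scored lower. Those whose CDS held 300 RPKM or more in every library, a limit chosen after the values were seen, had medians of 9.28% for UAA (157 transcripts) and 17.5% for UGA (133) with the enzymes left out. These ranks are a description, with no test.

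Averaged over the rest of the 3′UTR, the read density past the first 3′TC was lower in all 8 enzymes that have one. With both G418 libraries pooled, TPI1 had 283 reads in the 159 nt counted before it and 61 in the 394 nt after it, so the density after was 8.70% of that before. The corresponding value was 12.6% in ENO1, 10.1% in PKM, 8.60% in PGAM1 and 2.69% in GPI. It was 9.38% in HK1, 1.74% in PGK1 and 18.1% in LDHA, each on 7 or fewer reads before the first 3′TC. The rest of the 3′UTR ran from 243 nt in ENO1, with 4 in-frame 3′TCs in all, to 3441 nt in PGK1, with 69. The percentages are therefore not compared between enzymes and do not measure the drop at the first 3′TC itself. Reads after the first 3′TC were also set against CDS reads in both groups. Per CDS read under G418, TPI1 had 28.5 times as many (2 reads against 61, counting interval 7.57 to 241) and ENO1 13.8 times as many (4 against 50, counting interval 5.06 to 52.5). The ratio was 9.83 in PKM, 6.23 in PGAM1, 5.54 in PGK1, 4.72 in GPI and 2.26 in LDHA, each with a counting interval above 1, though that of LDHA began at 1.001. HK1 went the other way, with 7 reads against 3 and a ratio of 0.391 (counting interval 0.0652 to 1.71). How many of all transcripts rose after the first 3′TC was not counted, so nothing is read from the number of enzymes. For reads of the whole 3′UTR, 2871 of 4086 transcripts were called higher by edgeR. The intervals leave out the spread between replicates.

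The third comparison concerned the 5′UTR, where reads come from ribosomes upstream of the start codon. Of the 7 enzymes with at least 20 5′UTR reads, 1 fell relative to its CDS reads by edgeR, GAPDH, while 1.70% of the 3656 transcripts tested were called lower. GAPDH had 1.17 and 1.32 5′UTR reads per 100 CDS reads in untreated cells and 0.495 and 0.470 in G418-treated cells, from 259, 125, 78 and 64 reads. The log2 fold change was −1.36 ± 0.20 (SE), against a median of −0.16 over all transcripts, with an edgeR adjusted p of 0.00286. Without G418 A the log2 fold change was −1.40 (edgeR adjusted p of 0.167) and without G418 B it was −1.33 (edgeR adjusted p of 0.0521), each in a fit with 1 treated library.

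The 5′UTR of ENO1 held the most reads of the 9 and its share did not move detectably. It had 3.93 and 3.79 5′UTR reads per 100 CDS reads in untreated cells and 3.80 and 3.79 in G418-treated cells (log2 fold change −0.02 ± 0.080 SE, edgeR adjusted p of 0.933). LDHA had the highest share, at 5.01 and 6.83 in untreated and 4.81 and 5.04 in G418-treated cells. Its CDS reads are those of a transcript whose CDS lacks 269 nt of the MANE Select CDS. Its share against reads of the MANE Select CDS was not tested. PGK1 was at 2.71 and 3.88 against 2.48 and 2.56, PGAM1 at 4.04 and 3.36 against 2.42 and 2.73, and PKM at 1.497 and 2.11 against 1.57 and 1.43. GPI had 0.752 and 0.579 against 0.527 and 0.428. None of these 5 passed, with edgeR adjusted p from 0.403 (PGAM1) to 0.640 (PKM). The untreated replicates of LDHA, PGK1 and PKM lay further apart than the treated ones, with untreated B the higher in each. Without untreated A, LDHA and PGK1 also passed (edgeR adjusted p of 0.000165 and 0.00917), but untreated B was then the only untreated library and the spread came from the 2 G418 libraries alone, which lay closer together, so these calls are not used. HK1 and TPI1 had 13 and 11 5′UTR reads over the 4 libraries and were not tested.

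**Figure D4:**
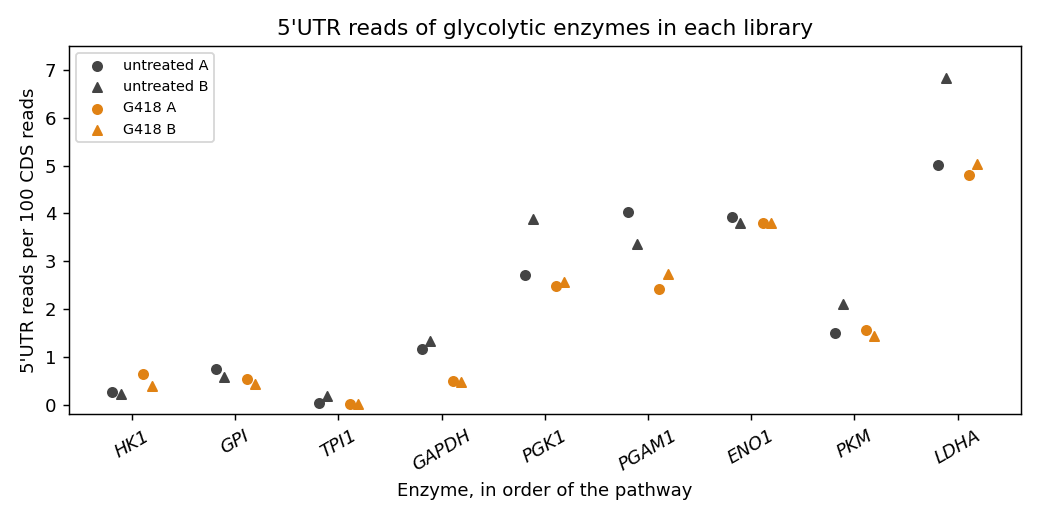
5′UTR reads per 100 CDS reads for each enzyme, with 1 point for each library (grey untreated, orange G418, circles replicate A, triangles replicate B). GAPDH falls from 1.17 and 1.32 to 0.495 and 0.470, while the 4 points of ENO1 lie between 3.79 and 3.93.

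The transcripts whose CDS densities over the 4 libraries were nearest to the geometric mean of the 9 enzymes were PCBP2, COX6A1 and MRFAP1, at Euclidean distances of 0.11, 0.12 and 0.14 on the log2 RPKM scale. The geometric mean of the enzymes was 734 and 688 RPKM in untreated and 635 and 579 RPKM in G418-treated cells. PCBP2 had 749 and 657 against 656 and 605 RPKM. COX6A1 had 687 and 711 against 632 and 597 RPKM, and MRFAP1 739 and 755 against 644 and 566 RPKM. The choice of these transcripts used all 4 libraries, which favoured densities that fall as those of the enzymes do.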

How the data were processed

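Ribosome profiling of HEK293T cells, 2 untreated and 2 G418 libraries, was analysed. The authors removed duplicate reads by sequence and molecular identifier, discarded noncoding RNA, aligned reads to hg38 with STAR, kept a single alignment per read and used a single transcript per gene. CASAVA 1.8 is named in the submitters' processing notes. The deposited counts are full-length RPFs per region, not normalized. The authors' RPM values are the same reads scaled to library size, and whole reads were recovered from them (100% whole within 0.01 reads). The deposited RPKM values are densities over regions that leave out nucleotides next to start and stop codons. The deposited ratio is RRTS. The deposited 5′UTR densities, a score, were not used. Transcripts under 1.00 RPKM are not listed.

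CDS counts were tested with edgeR (TMM, its filter on low counts). The SE given with an edgeR log2 fold change is its absolute value divided by the square root of the F statistic. Reads before the first 3′TC (at least 10) and 5′UTR reads (at least 20) were tested against CDS reads (offset: their log after adding 0.5), where each condition met the study's read minimum. Calls used an adjusted p of 0.05. Ratios with few reads have exact 95% intervals, for counting error only, and 3 reads are the floor for a group at 0. A ratio to that floor has no interval. Alternatives were DESeq2, library totals, other minimums, the whole 3′UTR, the replicate letter as a block and leaving out each library. The deposited tables hold no count to the first 3′TC, so deposited counts entered that test as offset only. The study calls A and B biological replicates, and p-values rest on the spread between these 2 per group. A fit that leaves out a library assumes that the lone sample varies like the other group. The members and gene lists were chosen with earlier results of these data known. All members are named, and from other lists up to 3 rises and 3 falls past the threshold. SLC2A1 was named outside this rule, after its values were seen. Coordinates and contexts come from GENCODE 44 on hg38, and CDS length and stop codon equalled the tables for all 9. Fits used edgeR 4.0.16 and DESeq2 1.42.0 under R 4.3.3, exact intervals scipy 1.17.1, tables pandas 2.3.3 and figures matplotlib 3.10.9.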

Additional observations from a re-analysis of the deposited data

How the results depend on the processing

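The number of enzymes with fewer CDS reads, 6, was 3 with DESeq2 and 2 with library totals, and ranged from 1 to 9 when a library was left out. The number with higher RRTS was 6 to 8 over the alternatives, which says nothing about stability because all 6 enzymes tested were called. The number with fewer 5′UTR reads per CDS read, 1, was 1 under the other alternatives and ranged from 0 to 3 when a library was left out. The log2 fold change of 5′UTR reads changed sign for ENO1 without untreated A (range over left-out libraries −0.049 to 0.0036) and for PKM without untreated B (−0.49 to 0.0082), and neither was called. Over all transcripts, CDS calls were 451 higher and 273 lower, against 113 and 140 with DESeq2, 57 to 990 higher and 15 to 1092 lower without a library. The samples share replicate letters only, with a correlation of deviations of 0.14 over 8494 transcripts and 2 pairs. With the letter as a block, 7 enzymes had fewer CDS reads (GPI was added), 6 had higher RRTS and 1 had fewer 5′UTR reads. Over all transcripts the block gave 452 of 8494 lower for CDS reads, 1852 of 2827 higher for RRTS and 84 of 3656 lower for 5′UTR reads. With the whole 3′UTR, PGK1 and LDHA were also called higher, and HK1 was not (log2 fold change 0.19, edgeR adjusted p of 0.832). In that fit 2871 of 4086 transcripts were called higher, so a call was the usual outcome. PGK1 had 5 and 0 reads in its whole 3′UTR in untreated A and B. It reached the minimum through its G418 reads, so nothing is read from its call. Depth limits the RRTS of HK1, PGK1 and LDHA, which rest on 10 or fewer reads in all.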

Other observations

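Lists from neighbouring pathways were small, and are set beside 3.21% lower and 5.31% higher over all transcripts. Of 11 tested genes on the list for entry of pyruvate into mitochondria, 1 fell and 0 rose by edgeR. PDHB, a subunit of pyruvate dehydrogenase, had 269 and 254 RPKM in untreated and 239 and 212 RPKM in G418-treated cells (log2 fold change −0.29 ± 0.087 SE, edgeR adjusted p of 0.0324). Of 6 tested genes of the pentose phosphate pathway, 1 fell and 0 rose. TKT, a transketolase that links this pathway to glycolysis, had 379 and 387 against 335 and 324 RPKM (−0.29 ± 0.081 SE, edgeR adjusted p of 0.0231). Of 3 tested genes of gluconeogenesis 0 passed by edgeR.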
